A study of Homo sapiens with 24 samples.

Results

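Collagens, laminins and integrins form the matrix that melanoma cells sit on and the receptors with which they hold it. They were followed here across 24 expression arrays of the human melanoma cell lines WM35 and Mel-624. The set holds each probe whose gene symbol starts with COL and a digit, LAMA, LAMB or LAMC and a digit, or ITGA or ITGB and a digit or letter, without the ITGB1BP and ITGB3BP genes. That gave 126 of the 47231 probes on the array, which stand for 78 of the 18811 genes with a named probe. Of these genes 44 are collagens with 73 probes, 10 are laminins with 17 probes and 24 are integrins with 36 probes. The rule also took in 2 pseudogenes, COL6A4P2 and LAMB2P1, and ITGBL1, an integrin-like gene that is no receptor subunit.

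The arrays fell into 8 groups of 3, lettered A, B and C. WM35 cells spent 24 h in hypoxia (1% oxygen) or normoxia (21% oxygen), and in each case either received recombinant human IGF1, insulin-like growth factor 1, at 100 ng/mL for the 6 h before harvest or were left untreated as controls. Mel-624 cells carried siIGF1R, an siRNA pool against the IGF1 receptor, or siControl, a non-targeting pool, and spent 3 days in hypoxia or in normoxia, for which the labels give no oxygen percentage. All cells grew in RPMI medium with serum, and 300 ng of total RNA per sample was labelled. The labels do not say that the samples of a group were separate cultures, so the p-values measure the spread between these samples, which may be technical.

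Type IV collagen networks and laminin trimers build basement membranes, the sheets on which pigment cells normally rest in skin. Fibrillar collagens such as types I, III and V, and the beaded type VI collagen, make up the stroma that lies beneath. Integrins are pairs of an alpha and a beta chain that bind these proteins from the cell surface and pass signals inward. Many alpha chains pair with ITGB1, while ITGAV also pairs with ITGB3, ITGB5 and ITGB8, and melanoma is known for changing its set of integrins as it invades.

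Between 13948 and 15987 probes were detected per array, and the number of arrays limits the precision. The mean signal before normalization was 317 to 341 in the WM35 normoxia controls, against 248 to 268 in the other WM35 groups and 290 to 388 in Mel-624. Each line was on its own chip, and the arrays of a group lay next to or close to each other on it, so line and chip, and group and position on the chip, cannot be told apart. The knockdown was visible in Mel-624: IGF1R had log2 signals of 6.19, 7.02 and 6.59 with siIGF1R and 8.46, 8.65 and 8.23 with siControl in hypoxia, and 6.03, 6.28 and 6.39 with siIGF1R and 6.98, 7.06 and 7.07 with siControl in normoxia. All siIGF1R arrays were lower, by 1.84 ± 0.18 in hypoxia (adjusted p = 2.5e-05) and by 0.81 ± 0.18 in normoxia (adjusted p = 0.0099) on the log2 scale. In Mel-624, 8 or 9 of 11 melanocytic marker genes were detected in each group, MLANA, PMEL, TYR and TYRP1 among them. In WM35 those 4 and S100B were undetected on all arrays and 4 to 6 of the 11 were detected, SOX10, MIA, ERBB3 and CSPG4 in every group. Marker signals were summed before normalization. In WM35 the melanocytic sum was 4710 to 5198 in hypoxia with IGF1 and 5519 to 6064 in hypoxia controls. It was 6000 to 6562 in normoxia with IGF1 and 8888 to 9578 in normoxia controls. The normoxia controls also had the highest mean signal of the WM35 groups, so the brightness of the arrays enters these sums. The part of this marker signal in the results on WM35 was not tested. None of 6 keratinocyte and epithelial markers was detected in any group. Among 10 fibroblast markers, DCN, PDGFRA and THY1 were undetected on all WM35 arrays, FAP was detected in hypoxic WM35, and DCN and LUM were detected in all Mel-624 groups. The summed fibroblast signal, also before normalization, was 69.9 to 150 in hypoxic and 69.5 to 121 in normoxic WM35. In Mel-624 it was 384 to 592 in hypoxia and 459 to 687 in normoxia. Of 7 endothelial markers, TIE1 was detected in all WM35 groups and KDR in both normoxic ones, and of 7 immune markers CD68 was detected in all groups and CD79A in Mel-624. The other immune markers, PTPRC and CD3E among them, were detected on all 3 arrays of no group. The part of these markers in the results was not tested.

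The lines expressed different matrix and integrin genes. A probe counted as detected at a detection p below 0.01, and a gene entered the tests of a line when a probe was detected on at least 3 of its 12 arrays. In WM35, 37 members passed (18 collagens, 6 laminins and 13 integrins), and in Mel-624, 22 passed (8 collagens, 5 laminins and 9 integrins). Of the 78 members, 15 passed in both lines, 22 in WM35 alone, 7 in Mel-624 alone and 34 in neither. The filter favours a difference between groups for a member that passed only through a group in which it is high. Counts among those that passed also leave out the silent genes. No array of WM35 detected 32 of the members, and no array of Mel-624 detected 51.

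Chains of type I and III collagen were detected on at most 1 of the 24 arrays. COL1A1 and COL3A1, chains of fibrillar collagens types I and III, and COL2A1 of cartilage were detected on 0 of 24 arrays, and COL1A2 on 1 WM35 array. COL4A3, COL4A4 and COL4A6, the type IV chains of specialised basement membranes, and LAMA2, the main laminin alpha chain of muscle, were detected on 0 arrays as well. The same held for ITGA2B, the platelet alpha chain, ITGB6, an epithelial beta chain, and the leukocyte chains ITGAX and ITGAD. In contrast, COL4A1 and COL4A2, the common type IV chains, LAMB1, LAMB2, LAMA5, ITGAV, ITGB1 and ITGB5 were detected on all 24 arrays. A level given for both lines comes from all arrays normalized together, and no probe is set against another.

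Several members were strong in WM35 and undetected in Mel-624. COL22A1, a collagen of tissue junctions, had group means of 11.17 to 11.41 in WM35 on the log2 scale and was undetected on all Mel-624 arrays, where its means were 4.39 to 4.50. ITGA5, the alpha chain of the fibronectin receptor, had group means of 10.48 to 11.15 in WM35, while its Mel-624 means were 4.47 to 4.61 without detection. COL5A2, COL6A1, COL6A3, COL13A1, COL18A1, LAMA4, ITGA1 and ITGB3 were likewise detected on all 12 WM35 arrays and on none of Mel-624. Conversely, COL25A1, ITGA9, COL15A1, ITGB7 and LAMC3 were detected in Mel-624 on 6 to 12 arrays and on none of WM35. LAMA1, the alpha chain of the embryonic laminin, was detected on all 12 Mel-624 arrays and on 7 of WM35. These differences are between lines on separate chips and were given no test.

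**Figure D1:**
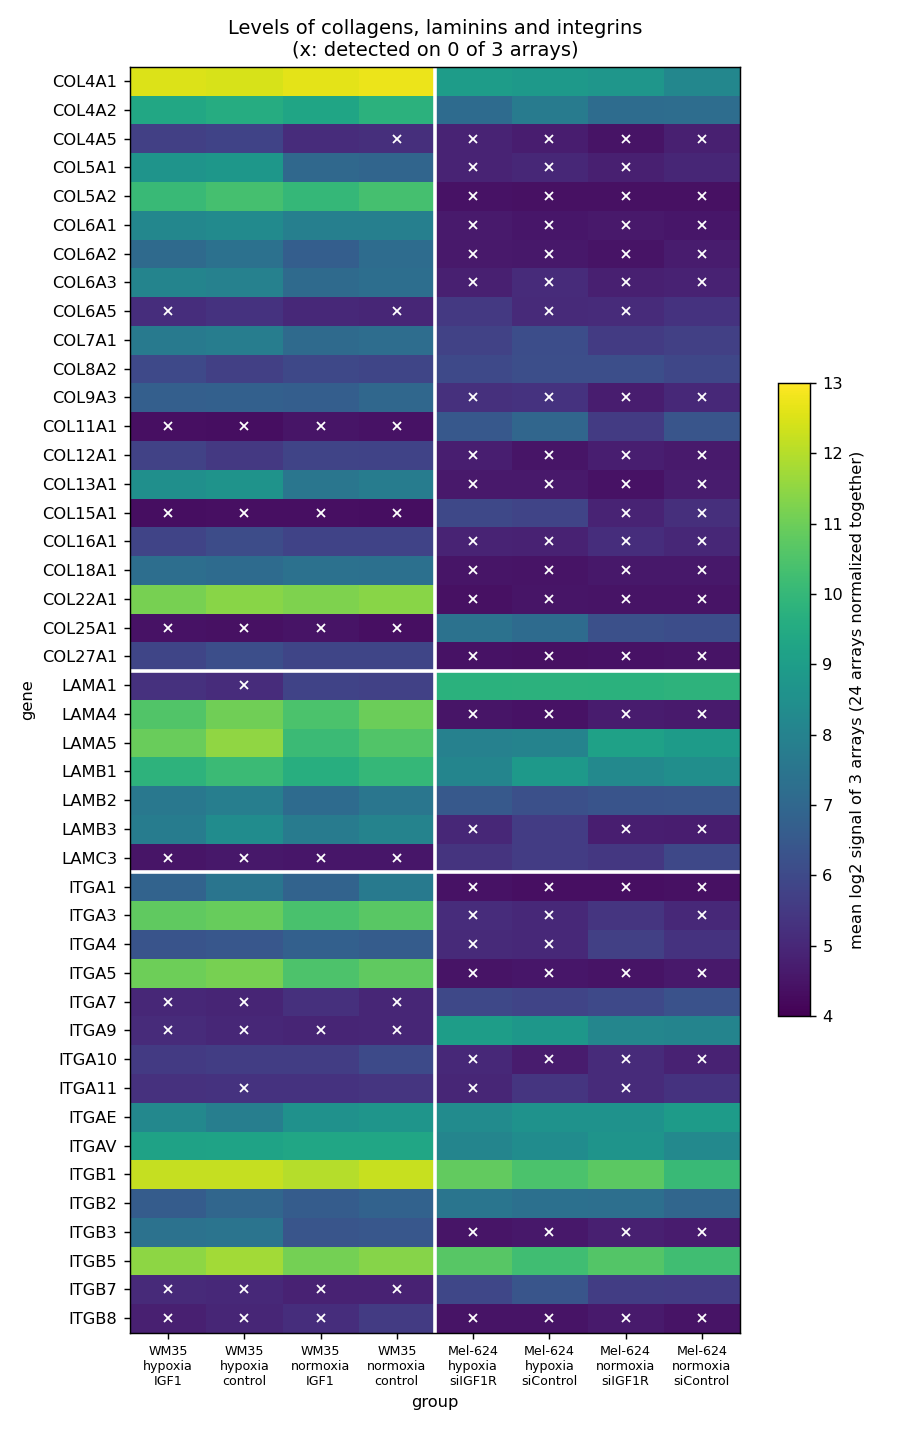
Mean log2 signal of 3 arrays (colour) for the 44 member genes that passed the detection filter over 24 arrays (rows) in the 8 groups (columns), each gene read by its brightest probe over the arrays of both lines; a cross marks a gene detected on 0 of 3 arrays. COL22A1, ITGA5 and LAMA4 are bright in WM35 and crossed out in Mel-624, and COL25A1 and ITGA9 are the other way round.

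The promoters of 5 members are shown because hypoxia changed these genes in at least 1 line and, for COL4A1 and COL4A2, because the genes share a promoter. The 250 bases before the annotated start are given 5′ to 3′ on the gene's strand, from RefSeq in build GRCh38.p14. Capitals mark the core of the hypoxia response element, searched as ACGTG and GCGTG on both strands (CACGT and CACGC on the printed strand). The match began 224 bases before the start at COL5A1 and 220 bases before it at COL4A2, COL25A1 held 2 matches that began 50 and 15 bases before it, and LAMA5 and COL4A1 held none. Of 35116 windows searched in all genes, 43.2% held a match, as did 38.4% of 73 windows of 54 members. A match in such a window is a description and no evidence of binding. The windows lie at chr9:134641553-134641802 on the plus strand (COL5A1), chr20:62367313-62367562 on the minus strand (LAMA5), chr4:109302659-109302908 on the minus strand (COL25A1), chr13:110307158-110307407 on the minus strand (COL4A1) and chr13:110307034-110307283 on the plus strand (COL4A2).
COL5A1: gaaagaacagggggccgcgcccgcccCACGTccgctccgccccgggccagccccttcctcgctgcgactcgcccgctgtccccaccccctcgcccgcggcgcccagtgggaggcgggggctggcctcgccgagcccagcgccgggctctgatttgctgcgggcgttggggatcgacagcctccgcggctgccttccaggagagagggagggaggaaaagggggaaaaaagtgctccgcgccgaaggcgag
LAMA5: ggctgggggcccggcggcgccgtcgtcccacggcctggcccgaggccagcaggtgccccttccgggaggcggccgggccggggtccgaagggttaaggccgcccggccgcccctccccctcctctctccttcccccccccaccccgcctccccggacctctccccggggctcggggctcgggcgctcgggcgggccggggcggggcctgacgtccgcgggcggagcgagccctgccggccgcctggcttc
COL25A1: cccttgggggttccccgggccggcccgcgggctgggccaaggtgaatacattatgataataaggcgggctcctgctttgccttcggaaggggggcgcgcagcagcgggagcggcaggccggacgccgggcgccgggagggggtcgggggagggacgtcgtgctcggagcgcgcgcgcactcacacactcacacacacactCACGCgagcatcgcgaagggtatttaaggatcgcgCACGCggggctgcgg
COL4A1: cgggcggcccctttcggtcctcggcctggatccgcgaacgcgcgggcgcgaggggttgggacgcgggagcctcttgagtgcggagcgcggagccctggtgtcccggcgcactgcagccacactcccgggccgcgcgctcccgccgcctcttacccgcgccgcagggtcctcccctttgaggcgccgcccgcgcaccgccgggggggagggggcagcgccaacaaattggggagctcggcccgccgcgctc
COL4A2: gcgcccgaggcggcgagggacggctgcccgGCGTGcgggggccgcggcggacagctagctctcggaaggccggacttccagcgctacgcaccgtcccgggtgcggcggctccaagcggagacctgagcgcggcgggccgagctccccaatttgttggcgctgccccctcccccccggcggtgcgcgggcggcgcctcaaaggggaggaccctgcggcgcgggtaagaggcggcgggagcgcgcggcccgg
COL4A1 and COL4A2 are read in opposite directions from starts 127 bases apart, so their windows share 126 bases, read on opposite strands.

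What hypoxia did to the matrix genes of WM35 was asked first without IGF1. In hypoxia 6 of 18 collagens, 1 of 6 laminins and 3 of 13 integrins rose. COL5A1 rose by 3.52-fold, and COL13A1, COL6A3, COL7A1, LAMA5, ITGB3 and ITGA5 were among the others. Of the 37 members tested, 10 rose and 3 fell (35.1%), against 20.7% of all 9569 genes tested, of which 9.98% rose and 10.7% fell. The arrays of the groups did not overlap for 17 members, against 38% of all genes. Over the members the median log2 change was 0.14, against -0.03 over all genes. All effects are log2 fold changes ± SE from limma, with 3 arrays per group and adjusted over all genes tested, and a gene is said to rise or fall where the adjusted p is below 0.05.

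Of the 18 collagens, 6 rose and 0 fell. COL5A1, a chain of the type V collagen that governs how thick type I fibrils grow, had values of 8.71, 8.76 and 8.62 in hypoxia and 6.89, 6.95 and 6.80 in normoxia. Its 3 hypoxic arrays lay far above the normoxic ones, and the change was 1.82 ± 0.09, or 3.52-fold (adjusted p = 4.1e-08). Its partner chain COL5A2 had means of 10.26 ± 0.09 in hypoxia and 10.25 ± 0.05 in normoxia (SD, n = 3). COL13A1, a collagen that spans the cell membrane at adhesion sites, had values of 8.53, 8.47 and 8.64 in hypoxia and 7.67, 7.67 and 7.77 in normoxia. The groups were clear of each other and the change was 0.84 ± 0.11 (adjusted p = 0.00014).

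Type VI collagen, which forms beaded filaments around cells, rose in 2 of its chains. COL6A3 had values of 7.80, 7.96 and 7.85 in hypoxia and 7.14, 7.16 and 7.30 in normoxia, a change of 0.67 ± 0.10 (adjusted p = 0.0007). Another probe of COL6A3 gave 0.75 ± 0.17 (adjusted p = 0.0084 over all probes). COL6A1 had values of 8.22, 8.09 and 8.36 in hypoxia and 7.92, 7.72 and 7.81 in normoxia. Its arrays did not overlap and it rose by 0.41 ± 0.10 (adjusted p = 0.015), while COL6A2 gave 0.18 and did not pass. COL7A1, the collagen of anchoring fibrils under the epidermis, had values of 7.44, 7.81 and 7.97 in hypoxia and 7.21, 7.18 and 7.01 in normoxia. Its lowest hypoxic array was still above the normoxic ones (0.61 ± 0.13, adjusted p = 0.0061). COL4A5, a type IV chain, had values of 5.77, 5.80 and 5.66 in hypoxia and 5.17, 5.07 and 5.21 in normoxia. It was detected on all 3 hypoxic arrays and on 0 normoxic ones and was at least 1.37-fold higher (adjusted p = 0.0098). COL4A5 passed the detection filter through the groups in which it is high, so its call adds no support to the counts. COL4A1 and COL4A2 gave -0.26 and -0.20 and did not pass.

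Among 6 laminins, 1 rose and 1 fell. LAMA5, the alpha chain of the most widespread laminins of adult basement membranes, had values of 11.20, 11.42 and 11.43 in hypoxia and 10.59, 10.46 and 10.31 in normoxia. The hypoxic arrays all lay higher, with a change of 0.90 ± 0.11, or 1.86-fold (adjusted p = 0.00012). LAMA1 had values of 5.13, 5.15 and 5.04 in hypoxia and 5.77, 5.61 and 5.61 in normoxia. It was detected on 0 hypoxic and 3 normoxic arrays and was at least 1.22-fold lower in hypoxia (adjusted p = 0.025). LAMA1 too passed the filter through the groups in which it is high. LAMA4, LAMB1, LAMB2 and LAMB3 did not pass.

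Among 13 integrins, 3 rose and 2 fell. ITGB3, the beta chain of the vitronectin receptor and a mark of invasive melanoma, had values of 7.31, 7.46 and 7.39 in hypoxia and 6.08, 6.67 and 6.37 in normoxia. All hypoxic arrays were higher although the normoxic ones were spread, and the change was 1.02 ± 0.14, or 2.02-fold (adjusted p = 0.00033). ITGB5, another beta chain that pairs with ITGAV, had values of 11.54, 11.52 and 11.65 in hypoxia and 11.21, 11.25 and 11.18 in normoxia. The groups did not overlap (0.36 ± 0.09, adjusted p = 0.013), and its other 2 detected probes gave 0.30 and 0.45, both past the threshold over all probes. ITGAV itself gave -0.10 and did not pass. ITGA5 had values of 10.88, 11.06 and 11.13 in hypoxia and 10.82, 10.73 and 10.56 in normoxia (0.32 ± 0.10, adjusted p = 0.038).

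ITGAE, best known as the alpha chain with which lymphocytes bind epithelial cadherin, went the other way, with values of 7.86, 7.72 and 7.73 in hypoxia and 8.64, 8.78 and 8.41 in normoxia. No hypoxic array reached the normoxic ones (-0.84 ± 0.13, adjusted p = 0.00076). ITGB8, which with ITGAV activates latent TGF-beta, had values of 4.59, 5.07 and 5.10 in hypoxia and 5.60, 5.38 and 5.51 in normoxia. It was detected on 0 hypoxic and 3 normoxic arrays and was at least 1.09-fold lower (adjusted p = 0.0074). Since the 3 normoxia controls were the WM35 arrays that detected ITGB8, and so let it pass the filter, its call adds no support to the counts. Its partner ITGAV, as above, did not pass.

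Some weaker calls of this comparison depended on single arrays. COL6A1 passed neither without normoxia control B (0.36, adjusted p = 0.062) nor without hypoxia control C (0.33, adjusted p = 0.059). ITGB5 did not pass without hypoxia control C (0.32, adjusted p = 0.052). ITGA5 gave 0.25 to 0.33 (adjusted p up to 0.14) without normoxia control B or C, hypoxia control B or C or hypoxia IGF1 B. LAMA1 did not pass (adjusted p up to 0.085) without any 1 normoxia control or without hypoxia control B or C, and with the deposited normalized values neither LAMA1 nor COL4A5 passed.

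**Figure D2:**
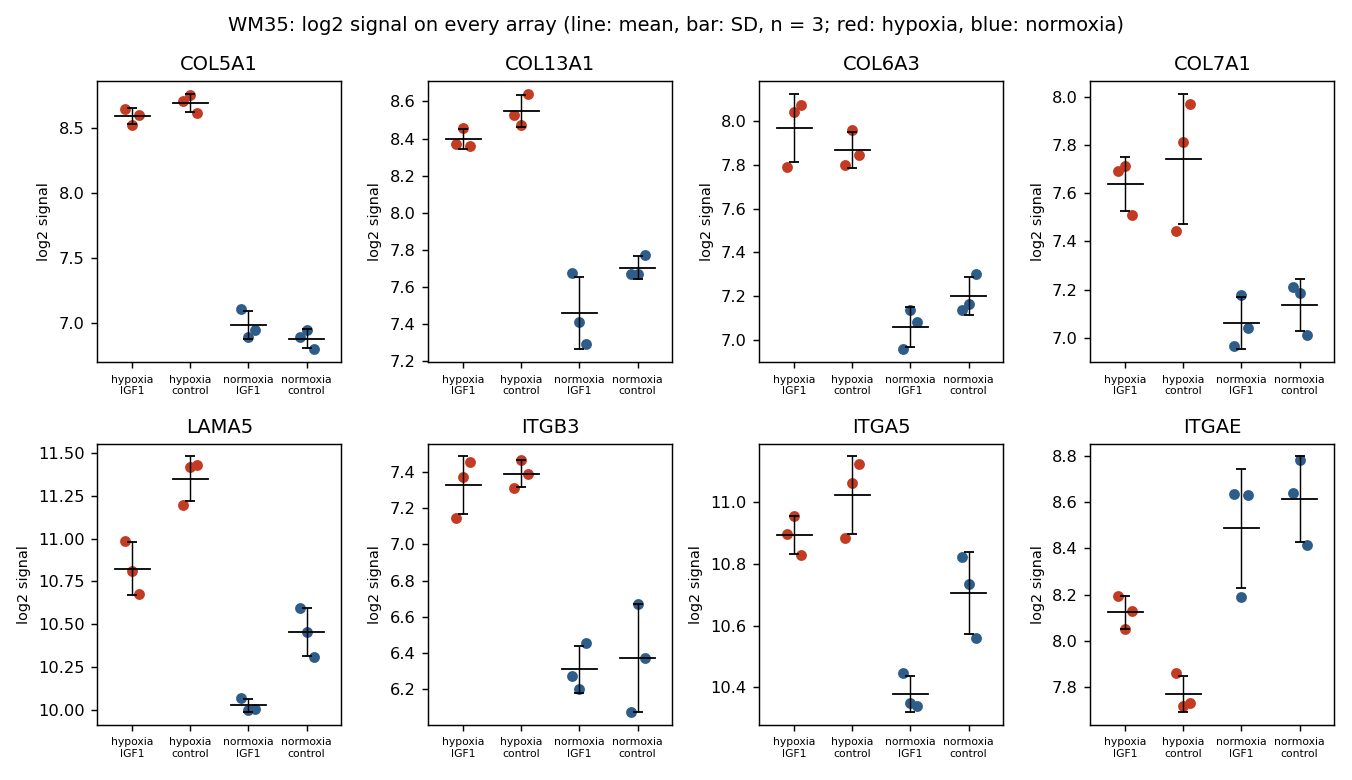
Log2 signal (vertical axis) of 8 members on every WM35 array in the 4 groups (horizontal axis), hypoxia in red left of normoxia in blue, with the mean as a line and the SD as a bar (n = 3). COL5A1, COL13A1, COL6A3, COL7A1, LAMA5, ITGB3 and ITGA5 are higher and ITGAE is lower in hypoxia controls than in normoxia controls.

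The same comparison was made in the presence of IGF1, with other arrays. Of 37 members 9 rose and 1 fell (27%), against 15.6% of all genes (8.19% up, 7.36% down), and 15 members, against 34.2% of all genes, had arrays that did not overlap. All 10 were among the 13 called without IGF1, and all 10 had the same direction. This overlap was not counted over all genes, so it is not shown to be particular to the members. COL4A5 and LAMA1 are among the 10 and passed the detection filter through the groups in which they are high. Their calls add no support to the counts or to the overlap. The 2 comparisons share no array, though their spread was estimated in 1 fit. COL5A1 had values of 8.65, 8.52 and 8.60 in hypoxia with IGF1 and 7.11, 6.90 and 6.95 in normoxia with IGF1, a change of 1.61 ± 0.09, or 3.05-fold (adjusted p = 1.7e-07). COL6A3 (0.91 ± 0.10), COL13A1 (0.94 ± 0.11), COL7A1 (0.58 ± 0.13) and LAMA5 (0.80 ± 0.11) rose with arrays that did not overlap.

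ITGB3 had values of 7.15, 7.37 and 7.46 in hypoxia with IGF1 and 6.27, 6.20 and 6.45 in normoxia with IGF1 (1.02 ± 0.14, adjusted p = 0.00039). ITGA5 had 10.90, 10.95 and 10.83 in hypoxia with IGF1 and 10.45, 10.35 and 10.34 in normoxia with IGF1. All arrays of ITGA5 were higher in hypoxia, by 0.51 ± 0.10 (adjusted p = 0.0039). ITGB5 rose by 0.34 ± 0.09 and COL4A5 by 0.54 ± 0.14. In normoxia with IGF1, COL4A5 was detected on 1 of 3 arrays, so its size rests on values near background. ITGB5 gave 0.29 to 0.32 (adjusted p up to 0.091) without normoxia IGF1 B or C or hypoxia IGF1 A or C. COL4A5 gave 0.36 to 0.52 (adjusted p up to 0.066) without normoxia IGF1 A or hypoxia IGF1 B or C, and 0.20 (adjusted p = 0.50) with the deposited normalized values. LAMA1 gave -0.52 ± 0.16 with overlapping arrays, and its adjusted p of 0.043 rose above the threshold under 15 of 19 alternatives, among them leaving out each of 10 single arrays, of which hypoxia IGF1 A moved it to -0.38 and hypoxia IGF1 B to -0.43 (adjusted p = 0.16 each).

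The effect of IGF1 itself was asked at each oxygen level, and its calls among the members were falls in laminins and ITGA1. In normoxia 1 of 37 members was called, downward (2.7%), against 1.58% of all genes (0.69% up, 0.888% down). In hypoxia 4 fell and 0 rose (10.8%), against 9.06% (4.5% up, 4.56% down). The shares called in either direction were thus near those over all genes. The arrays did not overlap for 13 members in normoxia, against 23% of all genes, and for 12 in hypoxia, against 29.1%. ITGA1, the alpha chain of a collagen receptor, had values of 6.60, 6.96 and 6.83 with IGF1 and 7.69, 7.51 and 7.56 without it in normoxia. In hypoxia it had 6.74, 6.72 and 6.91 with IGF1 and 7.34, 7.33 and 7.63 without it. The arrays with IGF1 were lower at both oxygen levels, by 0.79 ± 0.12 in normoxia (adjusted p = 0.0085) and 0.65 ± 0.12 in hypoxia (adjusted p = 0.0072), and the call in normoxia was lost without normoxia control A (-0.74, adjusted p = 0.054).

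In hypoxia 3 of 6 laminins fell with IGF1. LAMA5 had values of 10.98, 10.81 and 10.68 with IGF1 and 11.20, 11.42 and 11.43 without it (-0.53 ± 0.11, adjusted p = 0.013). LAMB3, the beta chain of an epithelial anchoring laminin, had 7.83, 7.84 and 7.47 with IGF1 and 8.28, 8.37 and 8.25 without it. No array overlapped for LAMB3 (-0.59 ± 0.13, adjusted p = 0.019). LAMA4, an alpha chain of vascular basement membranes, had 10.38, 10.54 and 10.43 with IGF1 and 10.75, 11.01 and 11.02 without it (-0.47 ± 0.12, adjusted p = 0.033). Its second detected probe gave -0.51 ± 0.11 in hypoxia and -0.69 ± 0.11 in normoxia (adjusted p = 0.014 and 0.012 over all probes). LAMB1 gave -0.34 and LAMB2 -0.25 in hypoxia, and neither passed.

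In normoxia the same laminins lay lower with IGF1 without passing, by -0.28 (LAMB3) to -0.50 (LAMA4), with adjusted p between 0.065 and 0.29. Over the 37 members the median change with IGF1 was -0.14 in normoxia and -0.13 in hypoxia, against -0.0034 in normoxia and 0.002 in hypoxia over all genes. Hypoxia had raised LAMA5 in controls, as given above, so with IGF1 the hypoxic mean of 10.82 ± 0.15 lay between 11.35 ± 0.13 in hypoxia controls and 10.45 ± 0.14 in normoxia controls (SD, n = 3). The IGF1 effect in hypoxia minus that in normoxia was called for 0 members by limma, against 0.0523% of all genes, and 1 member, ITGAE, had an unadjusted p below 0.05 (0.48 ± 0.19, adjusted p = 0.47). The 2 IGF1 effects were thus not shown to differ for any member. LAMA5 and LAMB3 passed neither without hypoxia control B (-0.49 and -0.55, adjusted p = 0.051 and 0.067) nor without hypoxia IGF1 C (-0.45 and -0.47, adjusted p = 0.055 and 0.073), which left 1 call. LAMA4 was lost without any 1 of hypoxia control B or C or hypoxia IGF1 A, B or C (-0.43 to -0.52, adjusted p up to 0.11).

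**Figure D3:**
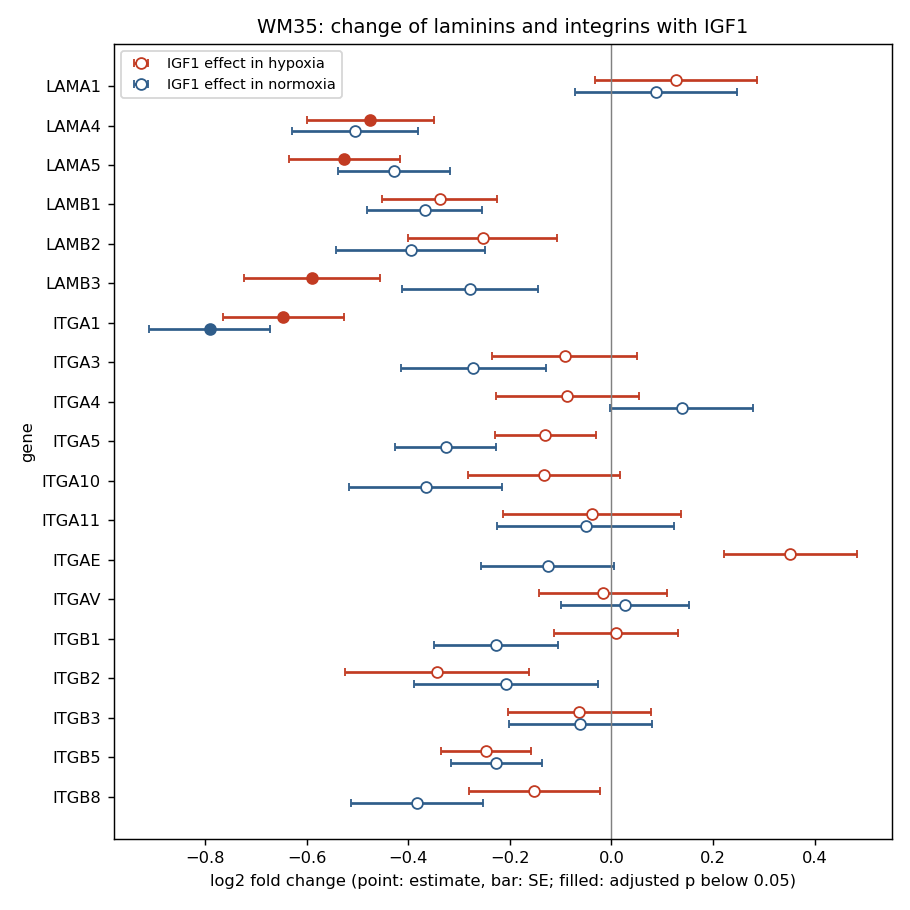
Log2 fold change with IGF1 in WM35 (horizontal axis, bars are SE) for the 6 laminins and 13 integrins tested (rows), in hypoxia (red) and normoxia (blue); filled points passed the test. LAMA4, LAMA5, LAMB1, LAMB2 and LAMB3 lie left of 0 at both oxygen levels, with 3 filled points in hypoxia, and ITGA1 is filled at both.

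In Mel-624 the question was how hypoxia acted with the receptor intact and after its knockdown. With siControl, 10 members rose and 1 fell of 22 (50%), against 51.6% of all 9292 genes (23.2% up, 28.4% down), so the share called was near that over the array. The arrays did not overlap for 13 members, against 60.4% of all genes. The directions were less even: the median was 0.30 over members and -0.03 over all genes. The risers were COL25A1, COL15A1, COL11A1, COL4A1, COL4A2, COL7A1, LAMB1, ITGA9, ITGB7 and ITGB1, and LAMA5 fell.

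COL25A1, a membrane-bound collagen first known from amyloid plaques, had values of 7.31, 7.22 and 7.15 in hypoxia and 6.24, 6.05 and 6.27 in normoxia with siControl. The groups were well apart (1.04 ± 0.11, or 2.06-fold, adjusted p = 6.7e-06). COL11A1, a fibrillar collagen of cartilage and of reactive stroma, had 7.18, 6.89 and 7.05 in hypoxia and 6.50, 6.39 and 6.40 in normoxia (0.61 ± 0.17, adjusted p = 0.0092). COL15A1, a basement membrane collagen, had 5.93, 5.73 and 6.12 in hypoxia and 5.36, 5.07 and 5.36 in normoxia. It was detected on 3 hypoxic and 0 normoxic arrays and was at least 1.31-fold higher (adjusted p = 0.00084). COL15A1 was detected in Mel-624 in hypoxia alone, with either siRNA pool, and passed the filter through those groups, so its calls add no support to the counts.

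COL4A1 had values of 8.92, 9.0 and 8.86 in hypoxia and 8.01, 8.35 and 8.38 in normoxia, a change of 0.68 ± 0.11 without overlap (adjusted p = 0.00019). COL4A2, across the shared promoter printed above, had 8.13, 7.80 and 7.47 in hypoxia and 7.48, 7.11 and 7.30 in normoxia. Here 1 hypoxic array lay within the normoxic range, and the change was 0.50 ± 0.19 (adjusted p = 0.042). COL7A1 rose by 0.41 ± 0.16 (adjusted p = 0.047), which with COL4A2 was the weakest call.

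LAMA5 had values of 8.17, 7.91 and 8.25 in hypoxia and 9.01, 8.99 and 9.07 in normoxia with siControl. All hypoxic arrays were lower, by 0.91 ± 0.12, or 1.88-fold (adjusted p = 2.8e-05). LAMB1, a beta chain of many laminins, rose by 0.40 ± 0.13 (adjusted p = 0.021). ITGA9, an alpha chain that binds tenascin, had 8.85, 8.86 and 8.84 in hypoxia and 8.23, 8.03 and 8.20 in normoxia (0.70 ± 0.10, adjusted p = 8.6e-05). ITGB7, a beta chain known from leukocytes, had 6.30, 6.43 and 6.58 in hypoxia and 5.81, 5.62 and 5.63 in normoxia (0.76 ± 0.13, adjusted p = 0.00032). ITGB1, the partner of most alpha chains, rose by 0.33 ± 0.12 (adjusted p = 0.025), and its other detected probe gave 0.58 ± 0.18.

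Some of these calls were lost when 1 array was left out. ITGB1 gave 0.27 to 0.33 (adjusted p up to 0.097) without normoxia siControl A or B or hypoxia siControl A or C. LAMB1 gave 0.32 to 0.40 (adjusted p up to 0.085) without normoxia siControl B or hypoxia siControl B or C. COL4A2 was lost without any 1 of 6 arrays and gave 0.34 without hypoxia siControl A (adjusted p = 0.18). COL7A1 was lost without any 1 of 8 arrays and gave 0.30 without normoxia siControl A (adjusted p = 0.18).

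After IGF1R knockdown, hypoxia raised 5 members and lowered 3 (36.4%), against 50% of all genes (22.7% up, 27.3% down). The arrays did not overlap for 7 members, against 56.7% of all genes. Of these 8, 6 were also among the 11 called with siControl, all in the same direction, namely COL25A1, COL15A1, COL11A1, COL4A1, ITGA9 and LAMA5. The overlap over all genes was not counted here either. COL25A1 had 7.48, 7.46 and 7.40 in hypoxia and 6.49, 6.11 and 6.16 in normoxia with siIGF1R (1.19 ± 0.11, adjusted p = 2.2e-06). LAMA5 had 7.92, 8.09 and 8.09 in hypoxia and 9.03, 9.36 and 9.32 in normoxia, with the groups far apart, and fell by 1.20 ± 0.12 (adjusted p = 2.9e-06). ITGA9 rose by 0.90 ± 0.10 and COL11A1 by 0.92 ± 0.17, and COL15A1, detected on 3 hypoxic and 0 normoxic arrays, was at least 1.41-fold higher.

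ITGAV had values of 7.98, 8.29 and 8.27 in hypoxia and 8.78, 8.70 and 8.68 in normoxia with siIGF1R. It fell without overlap by 0.54 ± 0.12 (adjusted p = 0.0018), whereas with siControl it gave 0.12 and did not pass. The difference between these effects, -0.66 ± 0.17, had an adjusted p of 0.08. ITGA4, a receptor chain for VCAM1 and fibronectin, was detected on 0 hypoxic and 2 normoxic arrays and was at least 1.13-fold lower (adjusted p = 0.034), with overlapping arrays. ITGA4 passed the detection filter through the normoxic groups, in which it is high, so its call adds no support to the counts. COL4A1 rose by 0.28 ± 0.11, and its adjusted p of 0.048 was above the threshold under 13 of 19 alternatives, 9 of them leaving out 1 array (0.24 to 0.30, adjusted p up to 0.13). ITGA4 was lost without normoxia siIGF1R A or B or hypoxia siIGF1R A or C (adjusted p up to 0.13).

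**Figure D4:**
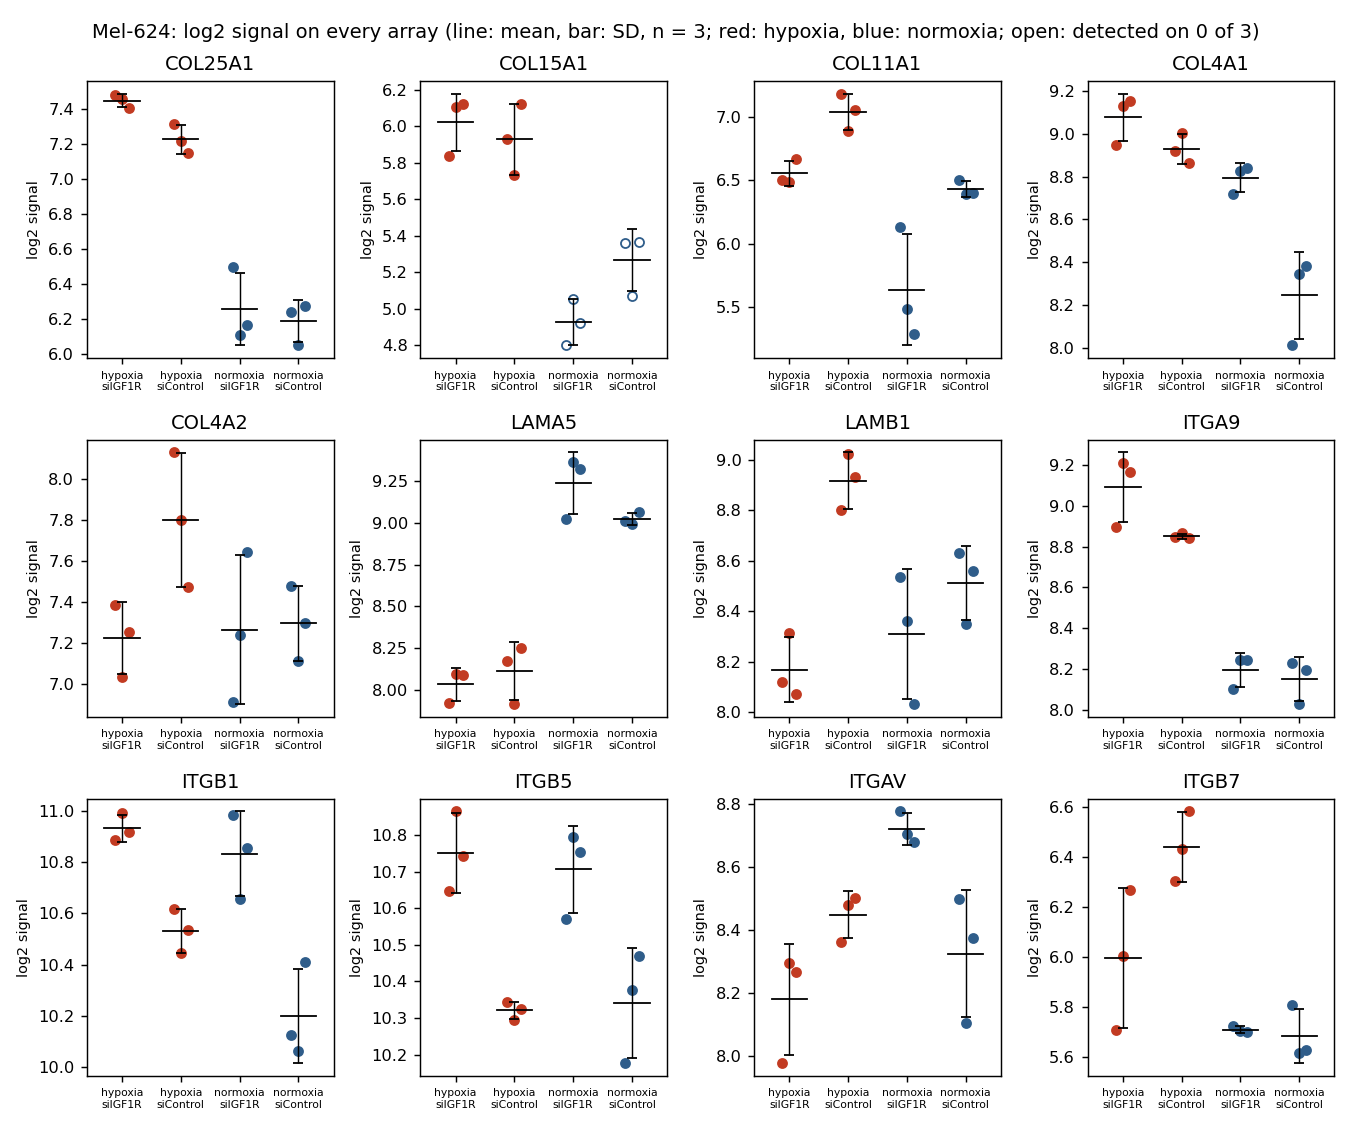
Log2 signal (vertical axis) of 12 members on every Mel-624 array in the 4 groups (horizontal axis), hypoxia in red left of normoxia in blue, with the mean as a line and the SD as a bar (n = 3); open circles mark groups detected on 0 of 3 arrays. COL25A1 and ITGA9 are higher and LAMA5 is lower in hypoxia with either siRNA pool, and ITGB1 and ITGB5 are higher with siIGF1R at both oxygen levels.

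Knockdown of IGF1R raised the beta chains ITGB1 and ITGB5 at both oxygen levels. In normoxia 4 members rose and 1 fell of 22 (22.7%), against 16% of all genes (8.49% up, 7.47% down), and in hypoxia 2 rose and 3 fell (22.7%), against 25.8% (13.1% up, 12.7% down). The arrays did not overlap for 7 members in normoxia, against 33.7% of all genes, and for 9 in hypoxia, against 42.8%. ITGB1 had values of 10.99, 10.66 and 10.86 with siIGF1R and 10.13, 10.06 and 10.41 with siControl in normoxia. In hypoxia it had 10.89, 10.99 and 10.92 with siIGF1R and 10.62, 10.45 and 10.54 with siControl. All knockdown arrays were higher, by 0.63 ± 0.11 in normoxia (adjusted p = 0.0031) and 0.40 ± 0.11 in hypoxia (adjusted p = 0.021). The other detected ITGB1 probe gave 0.76 ± 0.18 and 0.66 ± 0.18 (adjusted p = 0.015 and 0.018 over all probes).

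ITGB5 had 10.57, 10.80 and 10.75 with siIGF1R and 10.18, 10.38 and 10.47 with siControl in normoxia. In hypoxia it had 10.65, 10.86 and 10.74 with siIGF1R and 10.34, 10.30 and 10.32 with siControl. The groups were apart at both oxygen levels (0.36 ± 0.10, adjusted p = 0.03 in normoxia and 0.43 ± 0.10, adjusted p = 0.009 in hypoxia). Its other 2 detected probes gave 0.36 and 0.58 in normoxia and 0.51 and 0.56 in hypoxia, all past the threshold over all probes.

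The other calls of the knockdown were made at 1 oxygen level each. In normoxia COL11A1 had values of 6.13, 5.49 and 5.29 with siIGF1R and 6.50, 6.39 and 6.40 with siControl. All knockdown arrays were lower though widely spread (-0.79 ± 0.17, adjusted p = 0.0084), and in hypoxia the change was -0.48 ± 0.17 (adjusted p = 0.052). COL4A1 had 8.72, 8.83 and 8.84 with siIGF1R and 8.01, 8.35 and 8.38 with siControl in normoxia (0.55 ± 0.11, adjusted p = 0.0058). COL4A2, which faces it across the shared promoter, gave -0.03 ± 0.19 in normoxia and fell by 0.57 ± 0.19 in hypoxia (adjusted p = 0.043), where COL4A1 gave 0.15 ± 0.11. The difference between the 2 genes was not tested. ITGAV rose by 0.40 ± 0.12 in normoxia (adjusted p = 0.037) and gave -0.27 ± 0.12 in hypoxia.

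In hypoxia LAMB1 had values of 8.12, 8.32 and 8.07 with siIGF1R and 8.80, 9.02 and 8.93 with siControl. The knockdown arrays were all lower (-0.75 ± 0.13, adjusted p = 0.0014), while the change in normoxia was -0.20 and did not pass. A dim further probe of LAMB1 gave -0.43 ± 0.23 and did not pass. ITGB7 had 5.71, 6.01 and 6.27 with siIGF1R and 6.30, 6.43 and 6.58 with siControl, just apart (-0.45 ± 0.13, adjusted p = 0.024). The knockdown effect in hypoxia minus that in normoxia was called for 0 of 22 members by limma, against 0.818% of all genes. For 5 members, ITGAV, LAMB1, COL4A1, ITGB7 and COL15A1, it had an unadjusted p below 0.05 (adjusted p between 0.08 and 0.28), so a change of the knockdown effect with oxygen was not shown.

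Several of these calls also rested on single arrays. In normoxia, 3 calls were left without siIGF1R B. ITGB5 gave 0.28 to 0.38 (adjusted p up to 0.12) without siControl A or B or siIGF1R B or C, and ITGAV gave 0.29 to 0.42 (adjusted p up to 0.12) without siControl B or C or siIGF1R A, B or C. In hypoxia, the number of members called was 2 without siControl B, 3 without siControl C and 3 without siIGF1R B. Without siIGF1R B the calls that stayed were those of ITGB5 and LAMB1, so that count includes a member not called with all arrays. ITGB1 gave 0.36 to 0.41 (adjusted p up to 0.077) without siControl B or C or siIGF1R B or C, and ITGB7 gave -0.30 to -0.45 (adjusted p up to 0.087) without siControl B or C or siIGF1R A or B. COL4A2 gave -0.41 to -0.65 without any 1 of 7 arrays, with adjusted p up to 0.17 without siControl A.

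Whether hypoxia acted differently in the 2 lines was tested over all 24 arrays as the Mel-624 effect with siControl minus the WM35 effect without IGF1. The exposures differed in length, 3 days in Mel-624 and 24 h in WM35, and the lines were on separate chips, so line, chip and time cannot be told apart. The difference was called for 17 of 44 members (38.6%), 9 positive and 8 negative, against 32.4% of all 10599 genes (14.5% positive, 17.8% negative). Of the 17, 8 were tested in WM35 alone and 5 in Mel-624 alone. For those 13 the signals of 1 line were at or near background, and they do not show opposite behaviour. COL9A3 was not called in WM35 (-0.23, adjusted p = 0.22), and its Mel-624 means of 5.33 in hypoxia and 5.05 in normoxia were both undetected.

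Of the 15 members tested in both lines, 4 differed, against 32.4% of all 10599 genes, which include genes tested in 1 line alone. COL6A2, among the 15, was read by a different probe in each line. LAMA5 was called in opposite directions, -0.91 in Mel-624 and 0.90 in WM35, and the difference was -1.85 ± 0.16 (adjusted p = 2.5e-08). COL7A1 was the 1 member called in the same direction in both lines, 0.41 in Mel-624 and 0.61 in WM35. The Mel-624 call of COL7A1 was lost under 11 of 19 alternatives, 8 of them leaving out 1 array. Opposite and same-direction calls were not counted over all genes, so neither is shown to be particular to the members. COL4A1 rose in Mel-624 and gave -0.26 in WM35, a difference of 0.94 ± 0.16 (adjusted p = 0.00011). ITGB5 gave -0.02 in Mel-624 and rose in WM35 (-0.42 ± 0.13, adjusted p = 0.018). LAMA1 gave -0.04 in Mel-624 and fell in WM35 (adjusted p of the difference = 0.043). It was undetected on the WM35 arrays in hypoxia without IGF1, so any size of this difference is a fitted value and not exact. The LAMA5 and COL4A1 differences passed under every alternative run. ITGB5 was lost without Mel-624 normoxia siControl C (-0.36, adjusted p = 0.055), and LAMA1 without any 1 of 10 arrays (adjusted p up to 0.10).

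**Figure D5:**
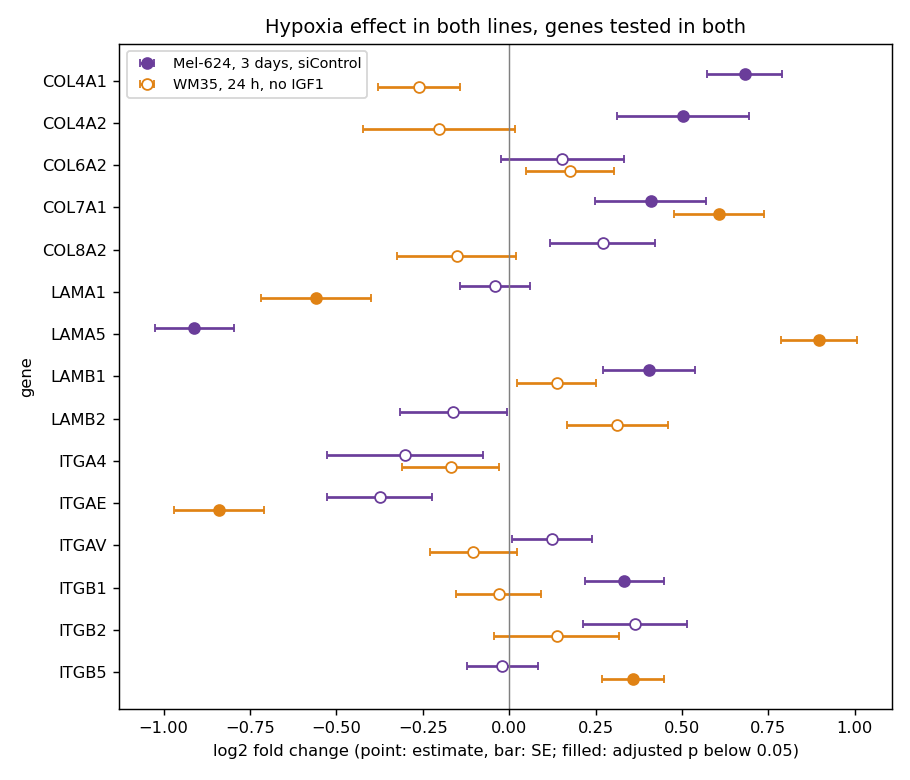
Log2 fold change with hypoxia (horizontal axis, bars are SE) for the 15 members tested in both lines (rows), in Mel-624 with siControl (purple) and WM35 without IGF1 (orange); filled points passed the test. LAMA5 lies at -0.91 in Mel-624 and 0.90 in WM35, COL4A1 lies right of 0 in Mel-624, and COL7A1 is filled and right of 0 in both.

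Of 24 genes for collagen folding, processing and crosslinking, 15 were tested in Mel-624, and 8 rose and 1 fell with hypoxia and siControl (60%, against 51.6% of all genes). In WM35 without IGF1, 10 rose and 1 fell of 17 tested (64.7%, against 20.7%). P4HA2, a subunit of prolyl 4-hydroxylase, rose by 1.42 ± 0.11 in Mel-624 and 1.71 ± 0.10 in WM35, and P4HA1 rose by 1.60 ± 0.10 in Mel-624 and 1.47 ± 0.17 in WM35. PLOD2, a lysyl hydroxylase that prepares collagen for crosslinking, rose by 0.73 ± 0.09 in Mel-624 and 1.23 ± 0.11 in WM35. With siIGF1R in hypoxia, 1 of the 15 rose and 3 fell (26.7%, against 25.8% of all genes, so near the share over the array). PLOD2 fell by 1.10 ± 0.09 (adjusted p = 8.9e-06), and its knockdown effect in hypoxia minus that in normoxia was -1.0 ± 0.13 (adjusted p = 0.0079).

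Among 22 adaptors that link integrins to actin, 5 rose and 2 fell of 18 in hypoxic Mel-624 with siControl (38.9%, against 51.6% of all genes), and 6 rose and 1 fell of 19 in hypoxic WM35 without IGF1 (36.8%, against 20.7%). PARVB, a partner of integrin-linked kinase, rose by 0.84 ± 0.09 in Mel-624 and 0.93 ± 0.10 in WM35. TNS1, a tensin, rose by 2.13 ± 0.16 in Mel-624 with siControl, and with siIGF1R in hypoxia it fell by 0.73 ± 0.16. Of 14 other basement membrane proteins, 3 were tested in Mel-624. With siIGF1R 2 of the 3 fell and 0 rose in hypoxia, against 25.8% of all genes called, and 2 fell and 1 rose in normoxia, against 16%. FBLN1, a fibulin, fell with siIGF1R by 1.04 ± 0.12 in hypoxia and 0.74 ± 0.12 in normoxia, and AGRN, agrin, fell by 0.54 ± 0.10 in hypoxia and 0.41 ± 0.10 in normoxia. FBLN2 rose with siIGF1R in normoxia (adjusted p = 0.024), where 1 siIGF1R array and 0 siControl arrays detected it and no fold is given, and it gave -0.21 in hypoxia, where it did not pass. With hypoxia and siControl it was at least 1.71-fold higher (adjusted p = 8.2e-07). In normoxia 1 array detected FBLN2, so it passed the detection filter through hypoxic arrays. Its calls add no support to the counts. In hypoxic WM35 without IGF1, 2 of 7 rose (28.6%, against 20.7% of all genes), TINAGL1 by 0.72 ± 0.18 and AGRN by 0.40 ± 0.12.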

How the data were processed

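One deposited table lists average probe intensity on 24 arrays, per the file headers, unnormalized and with background already subtracted, since values below 0 occur. Beside each intensity the deposited file lists a detection p-value. Signals came from GenomeStudio, per the submitters' processing notes, of unstated version. The authors also deposited normalized intensity values for 38221 probes, with the method unstated, which served as an alternative.

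For each line apart, neqc (limma 3.58.1, R 4.3.3) removed remaining background using the detection p-values, added an offset of 16, applied quantile normalization and gave log2 signals. Probes detected (p below 0.01) on 3 or more of a line's 12 arrays were kept, and the brightest of them stood for its gene. Lines were fitted apart (4 group means, lmFit, eBayes) and together for the difference between them, with Benjamini-Hochberg adjustment over all genes tested. Scripts were tested on simulated data. Where a group was undetected on all its arrays, the change is a bound against its signals raised to the lowest detected signal of each array. Symbols came from the platform annotation, updated by gene identifier. Promoters were read from RefSeq with Python 3.11.15.

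Members and lists were chosen with earlier results of these data known. Values on every array are given for IGF1R and for members called in at least 1 comparison whose arrays do not overlap. The gene lists were collagen folding and processing genes, adhesion adaptors, basement membrane partners, other matrix proteins, proteases and inhibitors, and other matrix receptors. Of each list, up to 4 genes with the smallest adjusted p in a comparison may be named. Markers of melanocytic cells, fibroblasts, keratinocytes, endothelium and immune cells were checked. Alternatives were the deposited normalized values, no correction for remaining background, 2 other detection filters, every probe, a replicate block, single arrays left out and the compared groups alone. A fit without WM35 normoxia control C and hypoxia control A, which had the highest scores on the main axis of spread (11.25 and 14.73, with hypoxia IGF1 C next at 10.96), was added after seeing the data. Letters were not taken to pair samples, since the labels give them no shared source. Same-letter correlations of deviations ran from -0.28 to 0.405 in WM35 (8 of 18 pairs over 0.1, and 12 of 36 with different letters). In Mel-624 they ran from -0.0384 to 0.183 (5 of 18, and 0 of 36). The Mel-624 median was 0.0466 for the same letter and -0.0207 for different letters. Counts with the letter as a block are given below.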

Additional observations from a re-analysis of the deposited data

Results flagged for a closer look

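The hypoxia effect in Mel-624 minus that in WM35, tested as a difference over all 24 arrays, was called for 17 members, and length of exposure and chip cannot be told apart from line. Of the members tested in both lines, LAMA5 differed by -1.85, COL4A1 by 0.937, LAMA1 by 0.537 and ITGB5 by -0.418 on the log2 scale. LAMA1, COL4A5 and ITGB8 in WM35 and COL15A1 in Mel-624 had a group undetected on all its arrays, so their sizes are fitted values and no exact differences.

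Members tested in WM35 alone were COL5A1 (-1.81), ITGB3 (-1.12), COL13A1 (-0.911), COL4A5 (-0.652), ITGB8 (0.59), COL9A3 (0.506), COL6A1 (-0.433) and ITGA5 (-0.385). Of these 8, COL5A1 was detected on 1 Mel-624 array and the others on 0. COL9A3 was not called in WM35 on its own (-0.23, adjusted p = 0.22), and its undetected Mel-624 signals averaged 5.33 in hypoxia and 5.05 in normoxia.

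Members tested in Mel-624 alone were COL25A1 (1.01), COL11A1 (0.705), ITGA9 (0.659), COL15A1 (0.602) and ITGB7 (0.591). COL11A1 was detected on 1 WM35 array and the others on 0. In each of these 13 differences the values of 1 line are at or near background.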

How the results depend on the processing

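Of 74 member calls, 38 passed under every alternative that tested the gene, 36 were lost under at least 1, and 1 of these reversed. An alternative that did not test a gene was left out for that gene. COL15A1, COL11A1 and ITGB7 in Mel-624 and ITGB8 in WM35, for example, were not tested when detection was asked on all arrays. The counts of members called that moved by over 1.5 times were as follows. With detection asked on all arrays, the IGF1 effect in normoxia gave 5, hypoxia with siIGF1R 5, the Mel-624 interaction 1 and the difference between lines 3. Testing every probe gave 2 and leaving out WM35 normoxia control C with hypoxia control A gave 3 for IGF1 in normoxia, and fitting the compared groups alone gave 3 for siIGF1R in normoxia. For the difference between lines, no further background correction gave 7 and the deposited normalized values gave 10. In that setting without further correction COL15A1 reversed to -0.17 (adjusted p = 0.94) and COL25A1 gave 0.01 (adjusted p = 0.99). Both are undetected in WM35, and the cause was not tested.

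Leaving out single arrays gave 9 to 13 members for hypoxia in WM35 without IGF1 and 8 to 12 with it, 0 to 2 for IGF1 in normoxia and 1 to 4 in hypoxia, 3 to 5 for siIGF1R in normoxia and 2 to 6 in hypoxia, 8 to 11 for hypoxia in Mel-624 with siControl and 6 to 8 with siIGF1R, 13 to 18 for the difference between lines and 0 for both interactions. It ended the difference between lines for COL6A1 (adjusted p up to 0.092), COL9A3 (0.093), ITGA5 (0.086) and ITGB7 (0.062).

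The letters share no stated source, so no pairing was assumed. With the letter as a replicate block, the counts were 12 and 9 for hypoxia in WM35 without and with IGF1, 1 and 4 for IGF1 in normoxia and hypoxia, 5 and 5 for siIGF1R, 12 and 8 for hypoxia in Mel-624 with siControl and siIGF1R, 16 between lines and 0 for the interactions. The block ended the calls of ITGA5 in WM35 hypoxia without IGF1 (adjusted p = 0.055), LAMA1 in WM35 hypoxia with IGF1 (0.056), COL4A2 in Mel-624 in hypoxia with siControl (0.054) and with siIGF1R in hypoxia (0.055), and LAMA1 between lines (0.051). By mean correlation of deviations, 9 of 12 Mel-624 arrays and 7 of 12 WM35 arrays were closest to their own letter. Dim members, near the lowest detected signal, limit what can be said to a bound.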

Other observations

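Of 15 other matrix proteins, 2 rose and 1 fell of 8 tested in hypoxic WM35 without IGF1 (37.5%, against 20.7% of all genes). VCAN, versican, was detected on 3 hypoxic and 0 normoxic arrays and was at least 2.11-fold higher (adjusted p = 9.7e-05). Those 3 hypoxic arrays were enough for VCAN to pass the detection filter, so its call adds no support to the count. FN1, fibronectin and the ligand of the receptor that holds ITGA5, rose by 1.20 ± 0.18, and SPP1, osteopontin, fell by 0.87 ± 0.16. In Mel-624, FN1 was detected on 3 siIGF1R and 0 siControl arrays in hypoxia and was at least 1.16-fold higher with siIGF1R (adjusted p = 0.013). It was the 1 of 3 tested that was called (33.3%, against 25.8%). The 3 siIGF1R arrays were enough for FN1 to pass the detection filter, so its call adds no support to this share.

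Of 16 matrix proteases and inhibitors, 1 rose and 1 fell of 6 tested with siIGF1R in Mel-624 at each oxygen level (33.3%, against 25.8% of all genes in hypoxia and 16% in normoxia). The membrane-bound protease MMP14 rose by 0.67 ± 0.17 in hypoxia and 0.79 ± 0.17 in normoxia, while the inhibitor TIMP1 fell by 0.76 ± 0.09 in hypoxia and 0.45 ± 0.09 in normoxia. In hypoxic WM35 without IGF1, 3 rose and 2 fell of 9 (55.6%, against 20.7%), with MMP9 up by 0.79 ± 0.08 and PLAT, tissue plasminogen activator, down by 0.78 ± 0.10.

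Of 13 other matrix receptors, 4 rose and 1 fell of 11 in hypoxic WM35 without IGF1 (45.5%, against 20.7% of all genes) and 1 rose of 11 with IGF1 (9.09%, against 15.6%). Without IGF1, DDR1, a collagen-binding kinase, rose by 0.44 ± 0.12. With IGF1 in hypoxic WM35, 0 rose and 1 fell of 11 (9.09%, against 9.06% of all genes), and DDR1 fell by 0.50 ± 0.12. With siIGF1R in hypoxic Mel-624, 1 rose and 1 fell of 10 (20%, against 25.8%), and DDR1 rose by 0.49 ± 0.11. Both shares were near or below those over all genes. Those 2 comparisons come from different lines, and the difference between them was not tested.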
